A study of Mus musculus with 12 samples.

Results

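The expression of 9 genes of cyclic nucleotide signalling was followed in natural killer (NK) cells of mice with and without the microRNA miR-142: 6 phosphodiesterase genes (Pde2a, Pde3b, Pde4b, Pde4d, Pde7a and Pde7b), 2 adenylyl cyclase genes (Adcy7 and Adcy9) and the protein kinase A subunit gene Prkar2b. They were 9 of 19938 gene symbols that had a probe set annotated to exactly 1 symbol, and each gene was read from its probe set with the highest mean over the arrays. The genes were picked with their levels in these arrays already known, so their differences between knockout and wild type are a description of the set and no independent evidence for it. Adjusted p-values from the fit of all genes are given only to place each gene in that table.

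The samples were NK cells sorted as CD3-negative and NK1.1-positive from C57BL6 mice aged 7 to 10 weeks and matched for age and sex. The 4 groups were wild type spleen, miR-142 knockout spleen, wild type bone marrow and miR-142 knockout bone marrow, with 3 arrays each. Arrays of a group are labelled as biological replicates, without saying whether each came from 1 animal or from a pool, or how the knockout allele was made or in which cells it acts. P-values therefore measure the spread between these arrays. In sorted bulk samples, fewer cells of a type and less RNA per cell cannot be told apart.

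Adenylyl cyclases make cyclic AMP when receptors engage the stimulatory G protein, and phosphodiesterases hydrolyse cyclic AMP, cyclic GMP or both, which ends the signal. Cyclic AMP binds the regulatory subunits of protein kinase A, encoded by genes such as Prkar2a and Prkar2b, and thereby frees the catalytic subunits, which act on targets that include the transcription factor CREB. In NK cells, receptors that raise cyclic AMP, such as those for prostaglandin E2 and adenosine, are known to restrain killing and cytokine release.

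The microRNA that was deleted is shown first because its loss defines the knockout groups, and because Adcy9 is a reported miR-142 target. RefSeq (GRCm38.p6) places the Mir142 hairpin of 64 bases at chr11:87756864-87756927 on the plus strand, and lists 2 mature products from it and another, Mir142b, from the opposite strand. The capitals mark the seed, bases 2 to 8 from the 5′ end, the stretch that pairs with target transcripts.
mmu-miR-142a-3p: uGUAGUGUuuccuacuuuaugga
mmu-miR-142a-5p: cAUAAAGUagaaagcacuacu
mmu-miR-142b: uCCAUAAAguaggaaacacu
The 3 seeds differ from each other, and each was carried by 0 of the other mature miRNAs among the 1679 in the table. The target site in Adcy9 lies outside the sequences used here and is not printed.

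The Mir142 probe set followed the labels. Its log2 signal was 6.77, 7.17 and 7.58 in wild type spleen against 4.05, 4.59 and 4.50 in knockout spleen. The bone marrow values were 7.10, 8.25 and 7.14 in wild type against 4.69, 4.70 and 4.26 in the knockout. No knockout array reached a wild type array, and the fitted differences were -2.91 ± 0.29 in spleen and -2.72 ± 0.32 in bone marrow (log2, standard error, n = 3 per group).

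The NK cell markers Ncr1 and Klrb1c, the gene for NK1.1, were high in all 12 arrays, at 11.53 to 12.11 and 10.66 to 11.42. Markers of other cells also moved between groups. The mean log2 signal of 12 granulocyte markers (8 of them above the filter described below) was 7.16 to 7.36 in wild type bone marrow, 5.87 to 6.53 in knockout bone marrow, 5.33 to 5.80 in wild type spleen and 5.69 to 6.26 in knockout spleen. The mean of the 9 T cell markers measured, 7 of them above the filter, was lower in the knockout in both tissues. It was 7.19 to 7.34 in wild type and 6.40 to 6.70 in knockout bone marrow, and 6.66 to 6.79 and 6.37 to 6.63 in spleen. Within that list Cd3e, a chain of the T cell receptor complex, was at 8.08 to 8.92 in wild type bone marrow and 6.95 to 7.87 elsewhere, although the sort was on CD3-negative cells. The mean of 7 genes that mark type 1 innate lymphoid cells, which share NK1.1 with NK cells, was 5.89 to 6.65 in the wild type arrays and 8.87 to 9.50 in the knockout arrays, and all 7 rose in each tissue. The mean of 9 dendritic cell markers, 4 of them above the filter, was 5.34 to 5.73 in wild type and 5.85 to 6.08 in knockout arrays. That of 5 monocyte and macrophage markers, 2 of them above the filter, was lower in the knockout. It was 6.25 to 6.48 in wild type and 5.90 to 6.13 in knockout spleen, and 6.51 to 6.76 and 6.27 to 6.50 in bone marrow. These lists moved with genotype alongside the cyclic nucleotide genes, and what part they have in the differences below was not tested, except that the tested genes were also fitted with the granulocyte level as a covariate. Those values are given where they ended a call or moved a value given below for the cyclic nucleotide genes by over 1.5 times. In bone marrow the granulocyte level differed between the genotypes without overlap. The fit with the covariate therefore separates genotype from granulocyte level poorly there, and its standard errors are larger. In that fit the bone marrow difference of Mir142, the deleted gene, was -2.72 ± 0.63, and its call was also lost (adjusted p = 0.0935 in limma). A call lost in that fit is thus no sign of what made the difference. The array medians were 5.75 to 5.87 log2 units, and the number of arrays limits the precision.

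**Figure D1:**
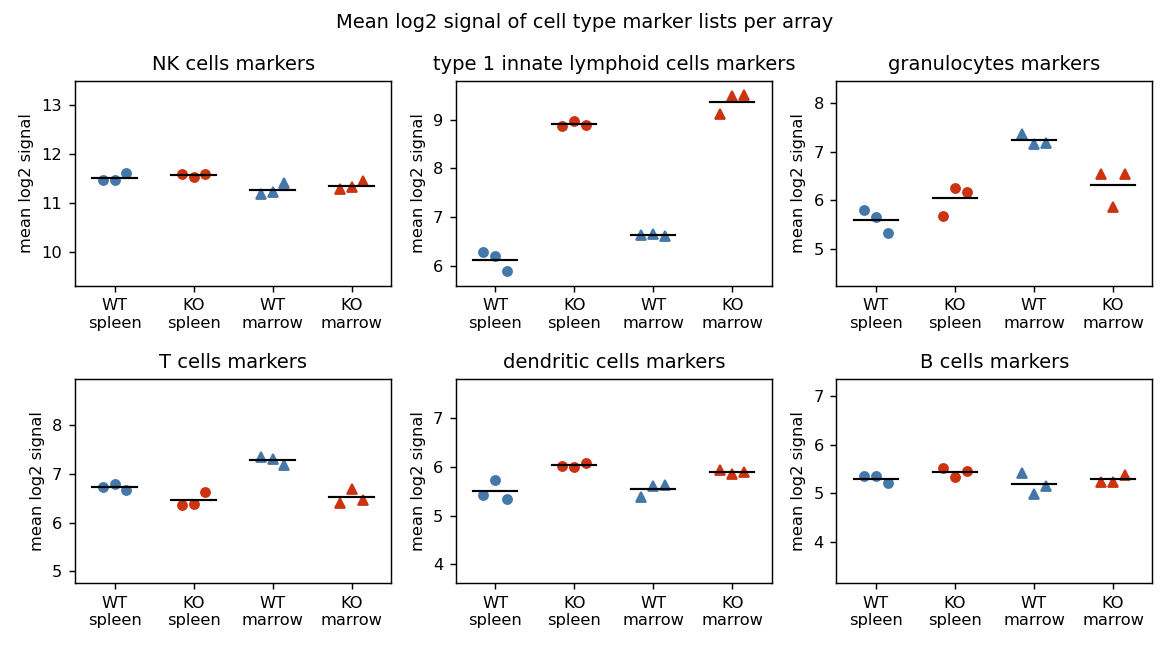
Mean log2 signal of 6 lists of cell type markers (vertical axis) in each array, grouped by genotype and tissue; points are arrays and lines are group means. The type 1 innate lymphoid cell list was at 8.87 to 9.50 in the knockout and 5.89 to 6.65 in the wild type arrays, and the granulocyte list was highest in wild type bone marrow, at 7.16 to 7.36.

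Genes were tested where their mean over the 12 arrays lay above 5.49, the 40th percentile of all symbols, which kept 11963 genes. Of the 9 genes, 8 passed. Prkar2b lay just inside with a mean of 5.49, rounded, and Adcy9 just outside with 5.48. Pde7b passed with a mean of 5.66 only through its knockout arrays, since all 6 wild type arrays were below the filter level.

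Among the phosphodiesterases, Pde2a was lower in the knockout in both tissues, and Pde7b and, less so, Pde3b were higher. The fall of Pde2a was 1.84-fold in spleen and 3.37-fold in bone marrow, while Pde7b was 1.95-fold and 2.82-fold higher. The other phosphodiesterases, the cyclases and Prkar2b all had small positive differences, of which only some passed the threshold of an adjusted p of 0.05 (limma, Benjamini-Hochberg over 11963 genes). In spleen, Pde7b passed upwards and Pde2a downwards, 2 of 8 genes against 9.11% of all genes tested (5.48% upwards and 3.63% downwards). In bone marrow, Pde3b, Pde4d and Pde7b passed upwards and Pde2a downwards, 4 of 8 against 8.65% (3.92% and 4.73%). In the average over both tissues, Pde3b, Pde4b, Pde4d, Pde7b and Adcy7 passed upwards and Pde2a downwards, 6 of 8 against 19.1% (8.81% and 10.3%). Because these contrasts were known when the genes were picked, nothing is read from those shares. The median difference of the 8 genes was 0.29 over both tissues, 0.24 for spleen alone and 0.35 for bone marrow alone, where all tested genes had medians of -0.01 in each.

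**Figure D2:**
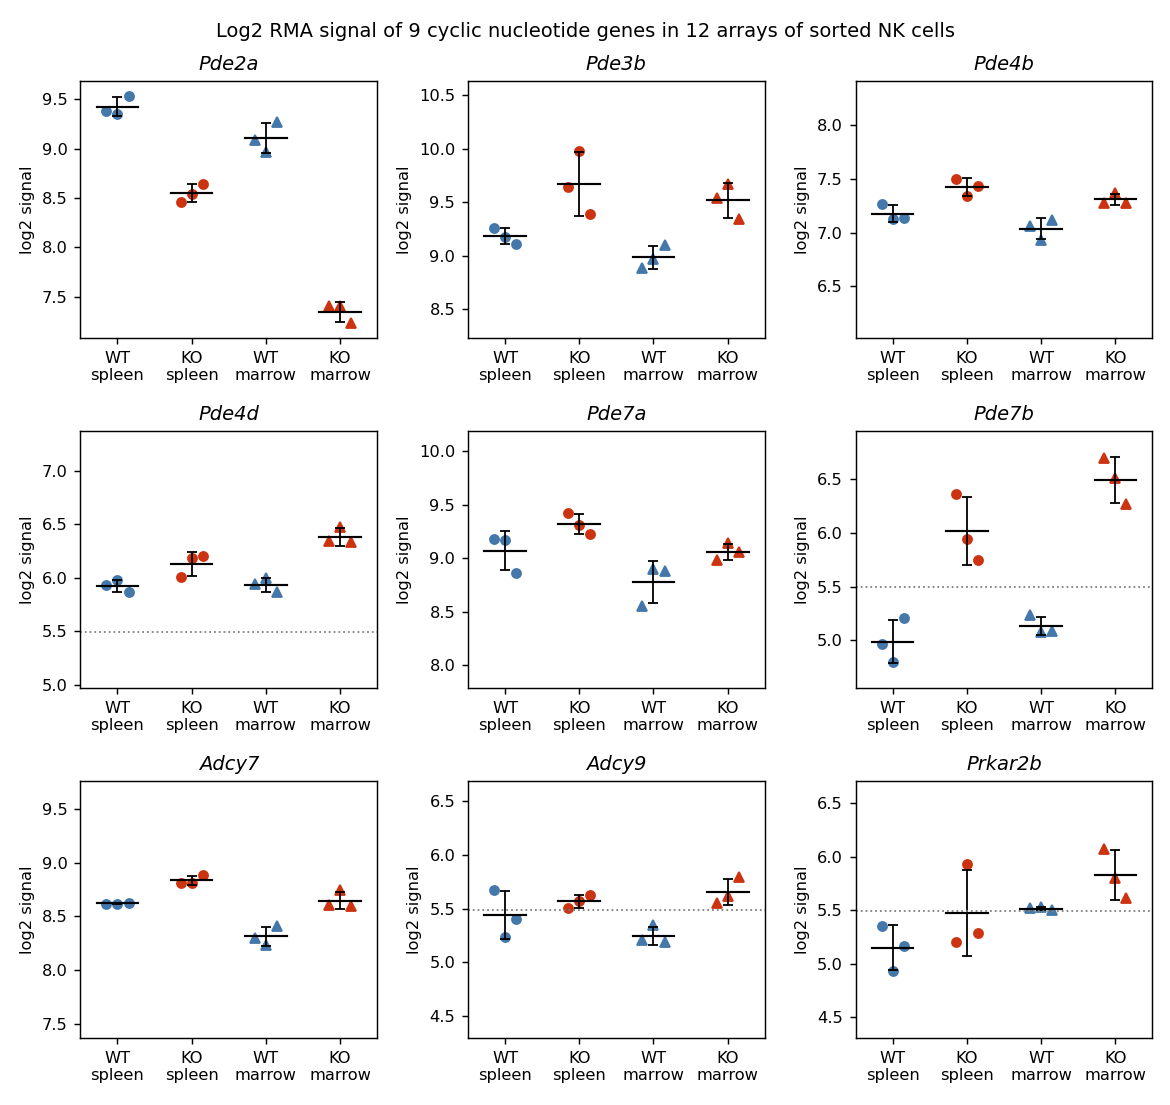
Log2 signal (vertical axis) of each of the 9 genes in all 12 arrays, by genotype and tissue; points are arrays, lines are means, bars are SD (n = 3) and the dotted line is the filter level of 5.49 where it falls in range. Pde2a is the gene whose knockout arrays lie below wild type in both tissues, and Pde7b crosses the filter level between wild type and knockout.

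Pde2a (probe set 10555510) encodes a phosphodiesterase that hydrolyses cyclic AMP and cyclic GMP and is activated by cyclic GMP. Its log2 signal was 9.38, 9.35 and 9.53 in wild type spleen and 8.46, 8.54 and 8.64 in knockout spleen. It was 9.09, 8.96 and 9.27 in wild type bone marrow and 7.40, 7.40 and 7.23 in knockout bone marrow. The 4 groups did not overlap at all, and in rising order they were knockout bone marrow, knockout spleen, wild type bone marrow and wild type spleen. The difference between knockout and wild type was -0.88 ± 0.12 in spleen (adjusted p = 0.000524) and -1.75 ± 0.13 in bone marrow (adjusted p = 8.28e-06). Both calls held in all 24 alternative settings tried. With the granulocyte marker level as a covariate the bone marrow difference was -1.85 ± 0.25 (adjusted p = 0.0105).

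The fall of Pde2a was larger in bone marrow than in spleen by 0.87 log2 units (difference of differences -0.87 ± 0.18). That difference between tissues had an unadjusted p of 0.000509 in limma, but an adjusted p of 0.19, so it did not pass over all genes. It was the only gene of the 8 with an unadjusted p under 0.05 in this comparison, in which 0.00836% of all genes passed. Bone marrow and spleen differed for Pde2a by -1.19 ± 0.13 within the knockout (adjusted p = 0.0019) and by -0.32 ± 0.12 within wild type (adjusted p = 0.126). The call within the knockout was lost without knockout spleen replicate 3, where the difference was -1.06 with an adjusted p of 0.0626. Between tissues within the knockout, 1 of the 8 genes passed, against 0.318% of all genes (0.092% higher and 0.226% lower in bone marrow). Within wild type 0 of the 8 passed, against 5.37% of all genes (4.34% and 1.04%).

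Pde7b (probe set 10368175) encodes a phosphodiesterase specific for cyclic AMP. Its log2 signal was 4.96, 4.80 and 5.20 in wild type spleen and 6.36, 5.95 and 5.74 in knockout spleen. It was 5.23, 5.08 and 5.09 in wild type bone marrow and 6.70, 6.52 and 6.27 in knockout bone marrow. Every knockout array was above every wild type array, while the tissues overlapped within each genotype. The difference was 0.97 ± 0.16 in spleen (adjusted p = 0.00301) and 1.49 ± 0.18 in bone marrow (adjusted p = 0.00036). Pde7b passed the filter only through its knockout arrays, the groups where it was high, so nothing is read from these calls. The wild type values lie in the dim range, where the array's background compresses log2 differences. With the granulocyte marker level as a covariate, the bone marrow difference was 1.16 ± 0.34 and its call was lost (adjusted p = 0.181), whereas that over both tissues was 1.12 with an adjusted p of 0.00071. The difference between the tissues' effects was 0.53 ± 0.26, with an interval from -0.04 to 1.09. With the granulocyte covariate it was 0.09 ± 0.46.

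The close relative Pde7a (probe set 10497399), also specific for cyclic AMP, did not pass in either tissue. Its level was 9.18, 9.17 and 8.87 in wild type spleen and 9.42, 9.31 and 9.23 in knockout spleen. Bone marrow values were 8.55, 8.90 and 8.89 in wild type and 8.99, 9.14 and 9.05 in the knockout. The genotypes did not overlap within a tissue, but the gap was small beside the spread of the wild type arrays. The difference over both tissues was 0.27 ± 0.09 (adjusted p = 0.0552, 95% interval 0.08 to 0.47). The spleen value rested on wild type spleen replicate 3, the lowest of its group, and was -0.01 without it. The bone marrow value of 0.32 ± 0.14 also depended on single arrays, and was 0.08 to 0.44 with 1 left out. A call was gained in 1 of 24 alternatives in bone marrow and in 4 of 23 over both tissues.

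Pde3b (probe set 10556528) encodes a phosphodiesterase that hydrolyses cyclic AMP and is inhibited by cyclic GMP. Its log2 signal was 9.26, 9.18 and 9.11 in wild type spleen and 9.64, 9.98 and 9.39 in knockout spleen. It was 8.88, 8.97 and 9.10 in wild type bone marrow and 9.54, 9.67 and 9.34 in knockout bone marrow. All 6 knockout arrays were above all 6 wild type arrays, and the knockout spleen arrays were the most spread. The difference was 0.44 ± 0.14 in spleen (adjusted p = 0.0845), 0.64 ± 0.16 in bone marrow (adjusted p = 0.0293) and 0.54 ± 0.10 over both (adjusted p = 0.00256). The call over both tissues held in all 23 alternatives, and that in bone marrow was lost in 7 of 24. The spleen call was gained in 2 of 24, without the term for label numbers described below (adjusted p = 0.0452) and with the replicate number in its place (0.0394). The 7 losses were with the granulocyte covariate (difference 0.62 ± 0.31, adjusted p = 0.426) and without wild type bone marrow replicate 1 (0.64, adjusted p = 0.17), replicate 2 (0.0561) or both (0.355), knockout bone marrow replicate 1 (0.0578) or 2 (0.0849), and knockout spleen replicate 3 (0.0597).

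The PDE4 enzymes are specific for cyclic AMP and are a main route of its breakdown in immune cells. Pde4b (probe set 10506335) was at 7.26, 7.13 and 7.14 in wild type spleen, 7.50, 7.34 and 7.44 in knockout spleen, 7.06, 6.93 and 7.12 in wild type bone marrow and 7.28, 7.37 and 7.28 in knockout bone marrow. Its knockout arrays lay above the wild type arrays in each tissue by a narrow margin. The difference was 0.26 ± 0.10 in spleen and 0.25 ± 0.11 in bone marrow, neither of which passed (adjusted p = 0.144 and 0.196), and 0.25 ± 0.07 over both (adjusted p = 0.023). With the granulocyte covariate the bone marrow difference was 0.07 ± 0.21. The call over both tissues was lost in 6 of 23 alternatives, among them the granulocyte covariate (adjusted p = 0.203) and the fits without wild type bone marrow replicate 1 (0.0698), wild type spleen replicate 2 (0.0677), knockout spleen replicate 1 (0.0585) or knockout bone marrow replicate 2 (0.0547).

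Pde4d (probe set 10407097) was at 5.94, 5.98 and 5.87 in wild type spleen and 6.00, 6.19 and 6.20 in knockout spleen. In bone marrow it was at 5.94, 6.00 and 5.86 in wild type and 6.34, 6.47 and 6.33 in the knockout. Wild type arrays of the tissues overlapped, and the knockout bone marrow arrays were above all others. The difference was 0.23 ± 0.10 in spleen (adjusted p = 0.198), 0.40 ± 0.11 in bone marrow (adjusted p = 0.0421) and 0.31 ± 0.07 over both (adjusted p = 0.00675). The bone marrow call was lost in 17 of 22 alternatives, with adjusted p-values of 0.00704 to 0.492 over them and a difference of 0.36 ± 0.21 in the fit with the granulocyte covariate, and the call over both tissues in 2 of 21, with the granulocyte covariate (0.0615) and without wild type bone marrow replicates 1 and 2 (0.0507). Pde4d had 2 further probe sets, with means of 3.67 and 4.88, both below the filter level. Their differences over both tissues were 0.34 ± 0.24 and 0.45 ± 0.28.

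**Figure D3:**
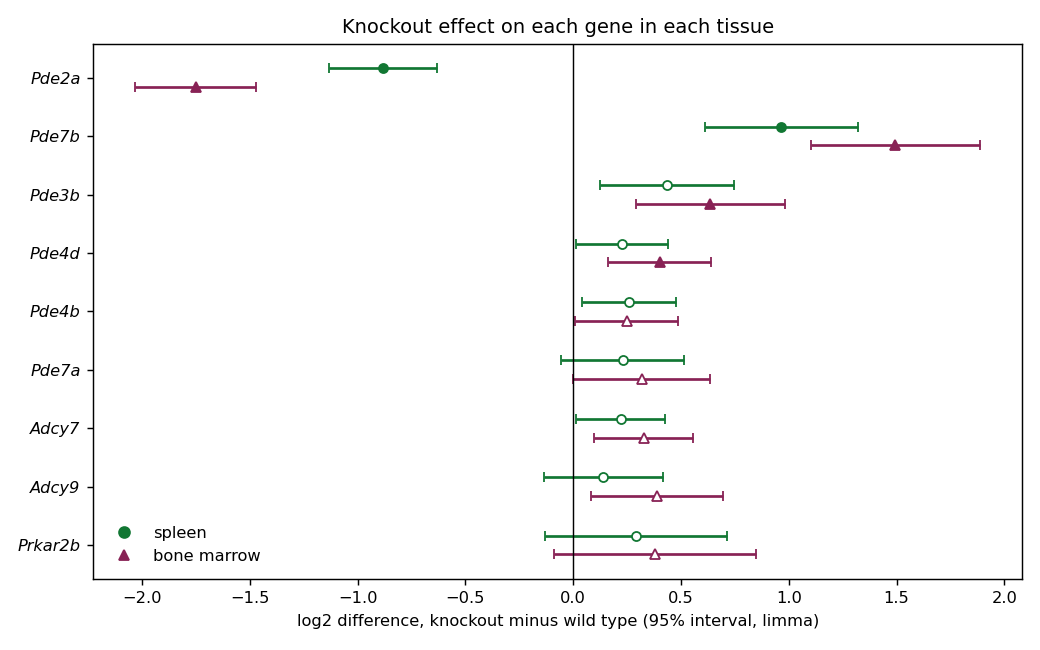
Difference between knockout and wild type on the log2 scale (horizontal axis) for the 9 genes in spleen (circles) and bone marrow (triangles), with 95% intervals from limma; filled symbols passed an adjusted p of 0.05. Pde2a is the 1 gene to the left of 0, at -0.88 and -1.75, and Pde7b lies farthest to the right, at 0.97 and 1.49.

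Adcy7 (probe set 10573747) encodes a membrane adenylyl cyclase that is abundant in blood cells. It was at 8.62, 8.62 and 8.63 in wild type spleen, 8.81, 8.81 and 8.89 in knockout spleen, 8.30, 8.24 and 8.41 in wild type bone marrow and 8.60, 8.74 and 8.60 in knockout bone marrow. Genotypes did not overlap within a tissue, and knockout bone marrow overlapped wild type spleen. The difference was 0.22 ± 0.09 in spleen (adjusted p = 0.194), 0.33 ± 0.10 in bone marrow (adjusted p = 0.078) and 0.27 ± 0.07 over both (adjusted p = 0.012). The call over both was lost in 3 of 23 alternatives: the granulocyte covariate (adjusted p = 0.132), and the fits without wild type bone marrow replicate 1 (0.0501) or without replicates 1 and 2 (0.159). With the granulocyte covariate the bone marrow difference was 0.17 ± 0.20.

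Adcy9 (probe set 10437364), the reported miR-142 target, encodes another membrane adenylyl cyclase. It was at 5.68, 5.24 and 5.40 in wild type spleen and 5.51, 5.57 and 5.63 in knockout spleen, and these arrays overlapped. In bone marrow it was at 5.21, 5.34 and 5.18 in wild type and 5.55, 5.62 and 5.79 in the knockout, which did not overlap. In a fit without the filter its difference was 0.14 ± 0.13 in spleen (adjusted p = 0.699, 95% interval -0.14 to 0.42), 0.39 ± 0.14 in bone marrow (adjusted p = 0.155, 0.08 to 0.70) and 0.26 ± 0.09 over both (adjusted p = 0.0812). No difference of Adcy9 passed the test, and its levels lie in the same dim range as those of Pde7b in wild type.

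Prkar2b (probe set 10399908) encodes the type II beta regulatory subunit of protein kinase A. It was at 5.35, 4.93 and 5.17 in wild type spleen and 5.20, 5.93 and 5.29 in knockout spleen, where the genotypes overlapped. In bone marrow it was at 5.52, 5.53 and 5.50 in wild type and 6.07, 5.80 and 5.61 in the knockout, which did not overlap. The difference was 0.29 ± 0.19 in spleen (adjusted p = 0.437), 0.38 ± 0.21 in bone marrow (adjusted p = 0.308) and 0.33 ± 0.13 over both (adjusted p = 0.108, interval 0.04 to 0.63). With the granulocyte covariate it was 0.14 ± 0.22 in spleen and 0.82 ± 0.39 in bone marrow (adjusted p = 0.403). Of the 8 tested genes, 7 in spleen and 8 in bone marrow had knockout and wild type arrays that did not overlap, where 28% and 34.2% of all genes did so.

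The sample labels carry numbers that fall into 2 runs of 7 and 5 arrays. What the runs stand for is not given, and they entered the fit as a covariate. The first run held every knockout bone marrow array. Within runs, the Pde2a difference in spleen was -0.73 and -1.03 and that in bone marrow, from the first run alone, -1.75. The Pde7b differences were 0.87 and 0.95 in spleen and 1.26 in bone marrow, and those of Pde3b were 0.17 and 0.70 in spleen and 0.63 in bone marrow. The spleen values compare 1 knockout with 2 wild type arrays in the first run and 2 with 1 in the second. Those of bone marrow compare 3 knockout arrays with 1 wild type array. In spleen the direction was therefore the same in each run for Pde2a, Pde7b and Pde3b. Bone marrow could not be compared between runs. No gene passed for the run itself in limma, and 546 had an unadjusted p under 0.05.

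Between the tissues in wild type, none of the 8 genes passed in limma, and 3 had an unadjusted p under 0.05: Pde2a, Pde7a at -0.31 ± 0.13 (adjusted p = 0.184) and Adcy7 at -0.30 ± 0.09 (adjusted p = 0.0868), all lower in bone marrow. The granulocyte covariate moved Pde2a to -0.19 ± 0.32, Pde7a to -0.20 ± 0.37 and Adcy7 to -0.08 ± 0.26. Granulocyte levels did not overlap between the wild type tissues either, so that fit separates tissue from granulocyte level poorly. Within wild type, 5 of the 8 genes had tissues whose arrays did not overlap, where 31.6% of all genes did so, and within the knockout 4 of the 8, against 16.3%. Within the knockout, Pde7b was 0.61 ± 0.18 higher in bone marrow, which did not pass (adjusted p = 0.278). The knockout comparisons of the tissues share no arrays with each other, but the comparisons between tissues use the same arrays as those between genotypes.

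The genes closest in pattern were listed for Pde2a, Pde7b and Adcy9 by Pearson's r over the 12 arrays, which share 4 groups, so a shared group difference alone gives a high value. For Pde2a they were Klf3 (r = 0.987), As3mt (0.986) and Plcb2 (0.986), of which Klf3 and As3mt were each lower by 2.24 log2 units in the knockout (difference -2.24). For Pde7b they were Meis1 (0.970), Tnfsf10 (0.967) and Sema6a (0.960), and Tnfsf10 is also 1 of the 7 markers of type 1 innate lymphoid cells above. For Adcy9 they were Sh2d6 (0.920), Atp2b2 (0.894) and Plagl1 (0.883).

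Beyond these genes, 108 others of the pathway were listed by role; 99 were measured and 52 passed the filter. In spleen 1 rose and 3 fell, 7.69% against 9.11% of all genes. In bone marrow 3 rose and 4 fell, 13.5% against 8.65%. Over both tissues 4 rose and 13 fell, 32.7% against 19.1%, and their median difference was -0.03 against -0.01 for all genes. With the granulocyte covariate, 0 of them passed in bone marrow, 1 in spleen and 8 in the average. Single arrays left out gave 1 to 3 in spleen, 2 to 9 in bone marrow and 10 to 18 over both tissues. Over all genes they gave 546 to 1083, 371 to 1006 and 1675 to 2178. Over both tissues, the calls of Pde1b, Pde8a, Prkar2a, Akap7 and Ptger4 held in every alternative that tested them, while those of Prkacb (lost in 13 of 23), Gnai3 (16 of 23), Hrh2 (16 of 23), Nr4a2 (9 of 23) and Crebbp (5 of 23) were lost more often. Those of Adcy3, Akap8, Akap8l, Crem and Nr4a1 were each lost in 2. The granulocyte covariate ended the calls over both tissues of Adcy3 (adjusted p = 0.112), Prkacb (0.11), Akap8l (0.051), Gnai3 (0.218), Hrh2 (0.196), Vipr2 (0.114), Nr4a1 (0.0657) and Nr4a2 (0.0713), and that of Akap7 in bone marrow, where the difference went from 1.02 to 0.66. In spleen it ended those of Pde1b (0.0531), Adcy3 (0.0944) and Prkar2a (0.201). In bone marrow it also ended those of Pde1b (0.427), Pde8a (0.26) and Akap8l (0.399). No gene of the 52 passed for the difference between the tissues' effects in limma, and 5 had an unadjusted p under 0.05. The share of all genes at that unadjusted threshold was not counted, so nothing is read from the 5.

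Of 18 further phosphodiesterase genes, 7 passed the filter, none rose and 2 fell over both tissues, where 8.81% of all genes rose and 10.3% fell. Pde1b, a calmodulin-dependent enzyme for both nucleotides, was at 6.38, 6.18 and 6.09 in wild type spleen against 5.71, 5.51 and 5.74 in knockout spleen. Its bone marrow levels were 6.13, 6.09 and 5.86 against 5.72, 5.54 and 5.60. No knockout array reached a wild type array, and the fall was 0.51 ± 0.08 over both tissues (difference -0.51, adjusted p = 0.000624). Pde8a, specific for cyclic AMP, fell by 0.50 ± 0.10 (difference -0.50, adjusted p = 0.00447). Among 8 further adenylyl cyclases, 3 passed the filter, and Adcy3 fell by 0.33 ± 0.08 over both (difference -0.33, adjusted p = 0.0108). None of 10 guanylyl cyclase genes, which make cyclic GMP, lay above the filter level.

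Of 9 measured genes for kinase subunits and inhibitors, 5 passed the filter. Prkar2a, the type II alpha regulatory subunit, fell by 0.50 ± 0.10 over both tissues (difference -0.50, adjusted p = 0.00348), and Prkacb, a catalytic subunit, rose by 0.22 ± 0.07 (adjusted p = 0.0333). The type II regulatory subunits therefore had differences of opposite sign, although that of Prkar2b did not pass. Of 15 anchoring proteins, which hold protein kinase A at sites in the cell, 8 passed the filter. Akap7 rose by 0.87 ± 0.15 over both (adjusted p = 0.00167), and the nuclear proteins Akap8 and Akap8l fell by 0.30 and 0.38 (differences -0.30 and -0.38). None of the 4 measured genes for other cyclic AMP sensors passed the filter.

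Upstream, 12 of 17 receptors that couple to the stimulatory G protein were measured and 9 passed the filter. Ptger4, a receptor for prostaglandin E2, was at 8.62, 8.87 and 8.68 in wild type spleen and 10.15, 9.94 and 9.98 in knockout spleen. In bone marrow it was at 8.69, 8.51 and 8.84 in wild type and 9.67, 9.71 and 9.66 in the knockout. Genotypes were far apart in each tissue, by 1.30 ± 0.12 in spleen (adjusted p = 4.15e-05) and 1.00 ± 0.13 in bone marrow (adjusted p = 0.00066). With the granulocyte covariate the bone marrow difference was 0.83 and its call was lost (adjusted p = 0.2), as it was without wild type bone marrow replicates 1 and 2 (0.84, adjusted p = 0.0679).

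Vipr2, a receptor for vasoactive intestinal peptide, was at 5.41, 4.70 and 5.06 in wild type bone marrow and 5.85, 6.69 and 7.00 in knockout bone marrow, a difference of 1.42 ± 0.31 (adjusted p = 0.0165). In spleen its arrays overlapped, at 5.71, 5.45 and 5.51 in wild type and 5.52, 5.91 and 5.29 in the knockout, with a difference of 0.04 ± 0.28. The mean of Vipr2 over the arrays exceeded the filter level only through knockout bone marrow, the group where it was high, so nothing is read from its call. The effect did not pass for a difference between tissues (1.38 ± 0.45, adjusted p = 0.395). The bone marrow call was lost with the granulocyte covariate (difference 1.42 ± 0.62, adjusted p = 0.363) and without knockout bone marrow replicate 2 (0.0519) or wild type bone marrow replicates 1 and 2 (0.123). Hrh2, a histamine receptor, fell by 0.24 over both tissues (difference -0.24, adjusted p = 0.0489), and of the 3 G alpha genes tested Gnai3, an inhibitory subunit, fell by 0.22 (difference -0.22, adjusted p = 0.0417).

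**Figure D4:**
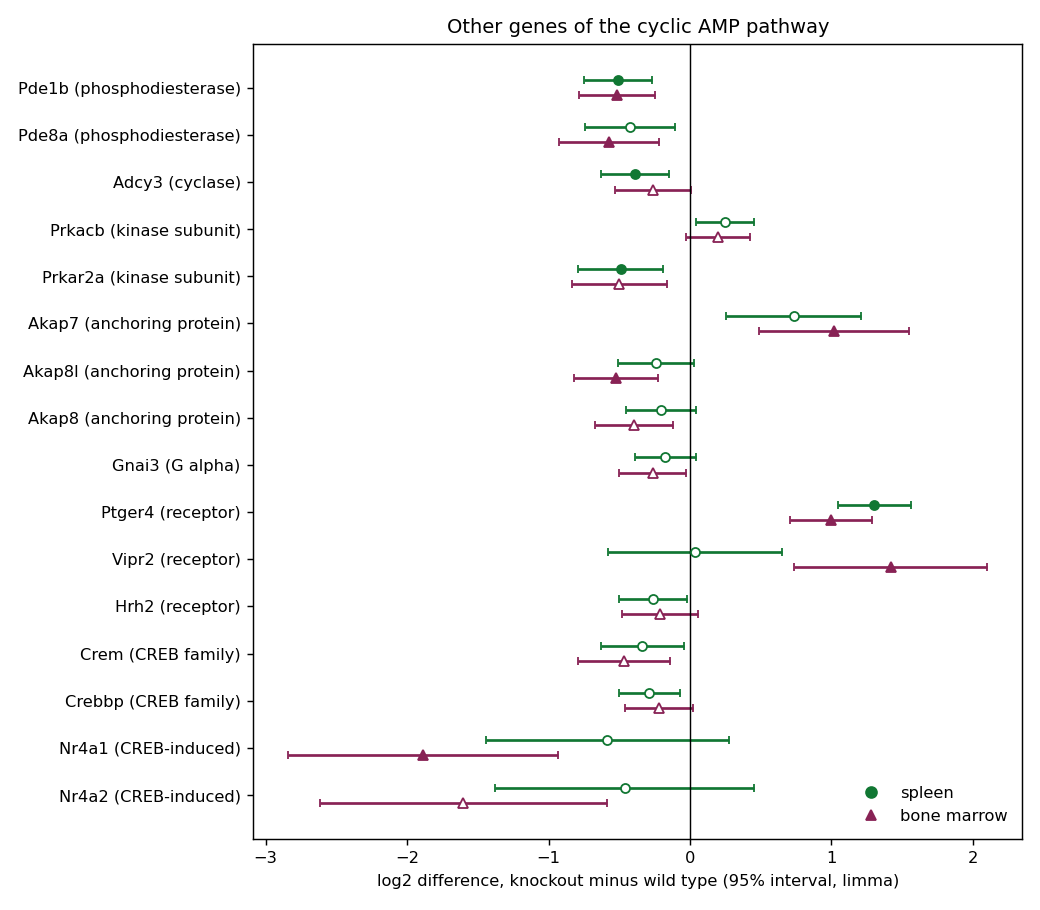
Difference between knockout and wild type on the log2 scale (horizontal axis) for 16 other genes of the pathway that passed in at least 1 comparison, in spleen (circles) and bone marrow (triangles), with 95% intervals from limma; filled symbols passed an adjusted p of 0.05 in that tissue. Ptger4 lies at 1.30 and 1.00, and the interval of Vipr2 in bone marrow lies to the right of 0 where its spleen value is 0.04.

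Downstream, all 8 CREB family factors and coactivators passed the filter; Crem, a CREB relative, fell by 0.40 ± 0.09 (difference -0.40, adjusted p = 0.00976) and the coactivator Crebbp by 0.25 ± 0.07 (difference -0.25, adjusted p = 0.023) over both tissues. The call of Crem was lost without wild type bone marrow replicate 1 (-0.34, adjusted p = 0.0543) and without replicates 1 and 2 (-0.30, adjusted p = 0.156). That of Crebbp was lost without wild type spleen replicate 1 (0.0559), wild type bone marrow replicate 1 (0.056) or replicates 1 and 2 (0.122), knockout bone marrow replicate 3 (0.0532) or knockout spleen replicate 2 (0.0661). Of 10 genes known to be induced through CREB, Crem among them, none rose and 4 fell over both, against 10.3% of all genes, with a median of -0.34. Their median was -0.03 in spleen, where 0 passed and 3.63% of all genes fell, and -0.58 in bone marrow, where 1 fell against 4.73%. Nr4a1, an immediate early nuclear receptor, was at 9.40, 9.04 and 7.86 in wild type bone marrow and 8.01, 7.06 and 6.76 in knockout bone marrow. These arrays overlapped, and the difference of -1.89 ± 0.44 (adjusted p = 0.0207) was lost in 6 of 24 alternatives, namely without wild type bone marrow replicate 1 (-1.59, adjusted p = 0.205) or replicates 1 and 2 (-1.0, 0.488), with the granulocyte covariate (-1.75, 0.416), with bone marrow fitted alone (-1.49, 0.0689), and without knockout bone marrow replicate 2 (-1.78, 0.0631) or 3 (-1.63, 0.0626). The granulocyte and T cell markers were highest in the wild type bone marrow group. Over both tissues Nr4a1 differed by -1.24 ± 0.27 and Nr4a2 by -1.03 ± 0.29. Fos, named after its values were seen, differed by -0.55 ± 0.17.

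CREB binds the element TGACGTCA or its 5-base end TGACG, which reads as CGTCA on the other strand, so the windows from 250 bases before to 50 after the RefSeq starts were searched on both strands. Windows were in the table for 7 of the 9 genes, 17 in all. The full element was in 0 of the 17, where 1.8% of 32851 mouse windows held it, and the 5-base end, which is part of the full element, was in 4 of 17 windows, of 4 genes, where 20.8% of all windows held it. The matches of Adcy9, Pde4b and Adcy7 are shown as far as they lie before the start, with the 5 bases in capitals, because these are the windows of the set in which the letters precede the start.
Adcy9, chr16:4420499-4420550, minus strand: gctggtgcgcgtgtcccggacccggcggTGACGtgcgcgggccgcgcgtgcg
Pde4b, chr4:102421493-102421553, plus strand: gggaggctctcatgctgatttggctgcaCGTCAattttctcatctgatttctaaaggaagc
Adcy7, chr8:88282936-88282991, plus strand: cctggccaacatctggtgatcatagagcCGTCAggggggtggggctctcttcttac
The fourth match, in Pde2a, lies after the start. A match describes the letters only, and the share of windows that hold them is near that of all promoters.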

How the data were processed

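Sorted NK cells were profiled on 12 Affymetrix arrays. Per the labels' protocols, Trizol-extracted RNA went through a NuGEN amplification kit, and the biotin-labelled cDNA was hybridised. The deposited values are log2 signals of 35556 probe sets, made by the authors with Affymetrix Expression Console and RMA per the submitters' processing notes. RMA normalizes quantiles over arrays, which hides global shifts and compresses dim differences. Their versions were not stated.

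Probe sets were named through the platform annotation (21789 had 1 symbol, 1621 several, 12146 none). The brightest probe set stood for a gene, and genes above the 40th percentile of mean level were tested with limma 3.58.1 in R 4.3.3, with group and the run of label numbers as terms and Benjamini-Hochberg adjustment. Values after ± are standard errors. The members and lists were chosen with earlier results of these data known. Other pathway genes are named where they passed in a knockout comparison, at most the 2 largest rises and 2 largest falls per list; correlates are named for Adcy9 and the 2 genes with the largest differences. On simulated data with 200 changed genes among 11963, a log2 change of 1 was found for 85.5% in spleen and 78.4% in bone marrow, and a change of 0.5 for 31.8% and 20.6%. More genes were called in the real comparisons, 1090 in spleen and 1035 in bone marrow. The adjusted threshold depends on that number, so the simulated rates need not hold for these arrays. Alternatives covered the run term, replicate blocks, scaling, the filter, single-tissue fits, a granulocyte covariate and left-out arrays. Sequences are from RefSeq, GRCm38.p6.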

Additional observations from a re-analysis of the deposited data

How the results depend on the processing

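Up to 24 alternatives were run for each comparison, and no called difference of the 9 genes or the named pathway genes changed sign in them. Of the values that had not passed, Pde7a in spleen was -0.01 without wild type spleen replicate 3, and Vipr2 in spleen ranged from -0.13 to 0.36 over single left-out arrays. The calls of Pde2a in each tissue, of Pde7b in spleen and of Pde3b over both tissues held in every alternative that tested them, which describes the settings and adds no support, since these values were known when the genes were picked. With single arrays left out, 2 of the 8 genes passed in spleen each time, 2 to 4 in bone marrow, 4 to 6 over both tissues and 0 to 1 between tissues in the knockout. Of the 52 other pathway genes, 1 to 3 passed in spleen, 2 to 9 in bone marrow and 10 to 18 over both. With the granulocyte covariate, calls over all genes in bone marrow fell from 1035 to 92. In that fit, 1 of the 8 genes passed in bone marrow and 3 over both tissues, and 1, 0 and 8 of the pathway genes passed in spleen, bone marrow and over both. Without wild type bone marrow replicates 1 and 2 these were 2 and 3 of the 8 genes and 2, 0 and 7 of the pathway genes. With only genes above the 60th percentile tested, 1 of the 8 genes passed in spleen and 2 in bone marrow, since fewer were tested. Without any filter 2 pathway genes passed in spleen, and with quantiles normalized again 1 of the 8 genes passed between tissues in wild type. Without the term for the run of label numbers, 12 pathway genes passed in bone marrow. With other settings the cause was not tested.

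Whether arrays with the same replicate number share animals is not stated, and the main fit treats all arrays as independent. The 18 same-numbered pairs had deviations correlated from -0.02 to 0.24, and 6 were over 0.1. Pairs with different numbers were not compared, so these values do not settle whether the arrays are paired. With the replicate number as a block beside the run term, 3 of the 8 genes passed in bone marrow, and with the block in place of it, 11 pathway genes did. Of counts over all genes, that in bone marrow went from 1035 to 1662 with the replicate block in place of the run term, 1590 without that term, 92 with the granulocyte covariate, 218 without wild type bone marrow replicates 1 and 2, and 371 to 1006 with single arrays left out. In spleen, 1090 became 640 with the granulocyte covariate and 546 to 1083 with single arrays left out. The single gene that passed for the difference between the tissues' effects became 0 to 11. Over both tissues, 2290 became 1406 and 1346 with the covariate and without those arrays. The split of calls in bone marrow was 469 higher and 566 lower, and 539 and 379 after a second quantile normalization; over both tissues it was 1054 and 1236 against 1233 and 1013. Between tissues in wild type, 643 calls became 977 with arrays centred on the median, 0 with the covariate, 1 without those arrays and 82 to 702 with single arrays left out; 519 higher and 124 lower became 901 and 76 with median centring. In the knockout, 38 became 87 without the run term, 128 with the replicate block in its place, 16 without those arrays and 1 to 38 with single arrays left out. Dim signals limit Pde7b, Adcy9 and Prkar2b.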
